A study of Mus musculus with 20 samples.

Results

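Livers of Fancd2 mutant mice given metformin were compared with livers of untreated Fancd2 mutants by RNA-seq. The libraries were chosen by their labels among the 18 analysed here, from 20 labelled samples: 3 metformin libraries and 3 untreated ones, 6 in all. A further metformin and a further untreated mutant sample were labelled but were not among the 18. The metformin mutants carried the genotype labelled d2-/- and had metformin as their only drug. The untreated mutants carried the same genotype and no drug, so the mutation is shared by both groups and is not what the comparison tests. All mice were male and tissue was taken after 18 months of treatment. The labels do not give the age at the start, the dose, the route or the strain background. The other libraries of the study came from mutants given metformin with oxymetholone (the combination, n = 3), mutants given oxymetholone alone (n = 5) and untreated wild-type mice (n = 4). No level of Fancd2 was analysed here.

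Metformin is a biguanide used against high blood glucose, and the liver is its main site of action. It enters hepatocytes through cation transporters, inhibits complex I of the respiratory chain, and activates the energy sensor AMPK, a kinase that restrains glucose and cholesterol production. FANCD2 belongs to the Fanconi anaemia pathway, which repairs crosslinks between DNA strands. Oxymetholone is an anabolic androgen given for marrow failure in Fanconi anaemia.

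Libraries held 21197647 to 28030133 counts with metformin and 21208673 to 29766050 counts in untreated mutants. Levels are given as CPM, the count scaled to library size with TMM factors. Log2 differences are metformin minus untreated, with the standard error of the fit, and each adjusted p comes from the quasi-likelihood test of edgeR over 16115 genes. Replicate numbers only name libraries: metformin 1, 3 and 4 and untreated 2, 3 and 4. The labels do not say that libraries came from separate animals, so p-values measure the spread between these samples. The tissue label held in the RNA: albumin, Alb, had 38730, 31360 and 19720 CPM with metformin and 28990, 34680 and 43100 CPM in untreated mutants. The lowest of 13 hepatocyte genes measured was above 0 in every library, and 11 of the 13 lay lower with metformin (median -0.19). Without metformin 4 the split was 7 lower and 6 higher (median -0.02), and the median was between -0.48 and -0.08 without metformin 1 or any 1 untreated library. Their summed level was 48740 to 100500 CPM with metformin and 75780 to 99050 CPM in untreated mutants. Metformin 3 and combination 3 stood farthest from the rest of the series, with median correlations of log2 CPM of 0.926 and 0.916. Where leaving out 1 library moved the median of a list described below by over 1.5 times or turned its sign, the value without it follows.

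No gene passed the test of edgeR, which called 0 of 16115 genes (0%), with a smallest adjusted p of 0.579. DESeq2 called 11 and limma-voom 0. At an unadjusted edgeR p under 0.05 there were 914 genes (5.67%), 710 higher and 204 lower with metformin, where chance gives 806. The number depended on single libraries, being 335 without metformin 3, 1883 without metformin 1 and 556 without untreated 3. Groups did not overlap in 635 genes that lay higher with metformin (3.94%) and in 535 that lay lower (3.32%), and these percentages are the background for the counts of gene groups below. The median log2 difference over all genes was 0.04. Among the 710 genes higher at an unadjusted p under 0.05, metformin 3 was the highest of the 6 libraries in 554, metformin 4 in 120 and metformin 1 in 36. All 11 genes called by DESeq2 also had their highest value in metformin 3. Gene groups are accordingly described by values in each library, and no gene below is taken as changed. Of the genes named below, Selenbp2, Mgat3 and Synpo2 were among the 11 called by DESeq2 (DESeq2 adjusted p = 0.0407, 0.0399 and 0.0399).

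Metallothioneins and acute-phase genes, which lay lower with metformin, held 4 of the 8 largest negative differences under the naming rule. Only genes without overlap between the groups enter under that rule, so the separation of these 8 follows from how they were picked. Metallothioneins are small cysteine-rich proteins that bind zinc and copper, and their genes are switched on by metals, glucocorticoids and inflammation. The promoters of the 2 liver metallothionein genes are shown because both genes are among these 8. Each line holds the 250 bases before the gene start, from RefSeq on GRCm38.p6, plus strand, and the capitals mark the core of the metal response element, TGCACNC or TGCGCNC on either strand.
Mt1, chr8:94178839-94179138: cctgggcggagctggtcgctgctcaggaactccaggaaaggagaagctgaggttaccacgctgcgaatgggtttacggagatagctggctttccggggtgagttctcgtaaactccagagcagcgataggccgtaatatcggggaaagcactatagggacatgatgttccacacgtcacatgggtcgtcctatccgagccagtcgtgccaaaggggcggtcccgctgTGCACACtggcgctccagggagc
Mt2, chr8:94172368-94172667: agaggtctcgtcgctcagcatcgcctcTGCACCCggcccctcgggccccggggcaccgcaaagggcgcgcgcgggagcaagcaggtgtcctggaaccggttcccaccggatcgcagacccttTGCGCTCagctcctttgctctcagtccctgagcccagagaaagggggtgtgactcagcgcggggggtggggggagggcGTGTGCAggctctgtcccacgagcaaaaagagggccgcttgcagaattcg
The coordinates cover 300 bases, 250 before the start and 50 after it. In that window Mt1 has 3 matches, starting at -23, 3 and 21 relative to the gene start, and Mt2 has 4, at -223, -128, -50 and 5. A match occurs in 25.7% of 32851 promoter windows, and 4 or more occur in 0.517%. The files' own build is GRCm39, so these coordinates are not on the files' build.

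Mt2 had 0.895, 0.594 and 0.464 CPM in the metformin livers and 34.6, 18.5 and 9.39 CPM in the untreated mutants. Every metformin library lay below every untreated one, as the naming rule requires (log2 difference -5.02 ± 1.68, edgeR adjusted p = 0.607). Mt1 had 38.4, 62.9 and 21.7 CPM with metformin and 994, 432 and 212 CPM without it, again with no overlap (-3.74 ± 1.62, edgeR adjusted p = 0.825). Wild-type livers overlapped both groups, with 0.392 to 25.7 CPM of Mt2 and 13.4 to 646 CPM of Mt1. The transcription factor gene Mtf1, whose product binds the metal response element, had 9.68 to 15.2 CPM with metformin and 11.5 to 12.6 CPM in untreated mutants. Of the 10 metallothionein and zinc transporter genes measured, 7 lay lower and 3 higher, and Mt1 and Mt2 were the 2 without overlap. The median of these 10 genes was -0.20, and without untreated 2 it was 0.04, with 4 lower and 6 higher. It was -0.11 without metformin 4 and -0.41 without untreated 4.

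Acute-phase proteins are secreted by hepatocytes under the control of interleukin-6 and related cytokines. Of 30 such genes measured, 27 lay lower with metformin, 8 of them without overlap, and the median log2 difference was -1.23 against 0.04 over all genes. Serum amyloid A gene Saa1 had 137, 573 and 811 CPM with metformin and 23660, 10130 and 1963 CPM in untreated mutants (-4.56 ± 2.02, edgeR adjusted p = 0.844). Its neighbour Saa2, a close copy whose reads may be shared with Saa1, had 65.8, 184 and 308 CPM with metformin and 20400, 5477 and 654 CPM without it. Untreated 2 held the highest value of both genes. Apcs, which encodes serum amyloid P, was steadier: 1099, 837 and 1177 CPM with metformin and 5703, 5188 and 3120 CPM without it (-2.17 ± 0.78, edgeR adjusted p = 0.668). Fgl1, a fibrinogen-like secreted protein gene outside the list, had 349, 726 and 339 CPM with metformin and 5574, 4366 and 2093 CPM without it (-3.09 ± 1.25, edgeR adjusted p = 0.783). Neither Apcs nor Fgl1 overlapped between the groups, which for Fgl1 was a condition of the naming rule. Orm1, which encodes the plasma glycoprotein orosomucoid, ranged from 1292 to 2188 CPM with metformin and from 4527 to 10160 CPM in untreated mutants. Serpina3n, an antiprotease gene of the same response, did overlap: 169 to 348 CPM with metformin and 1851, 226 and 146 CPM without it. Without untreated 2 its log2 difference was 0.35 in place of -1.65. Leaving out untreated 2 moved the whole list as well, to a median of -0.43 with 21 of 30 lower.

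The acute-phase list lay low in all 3 metformin livers relative to the untreated mean, with list medians of -1.34, -0.59 and -0.60 for metformin 1, 3 and 4. The untreated libraries themselves spread from -0.73 in untreated 4 to 1.012 in untreated 2, so the list medians of metformin 3 and 4 lay inside the untreated range. The summed level was 34590 to 53660 CPM with metformin and 49230 to 208700 CPM in untreated mutants. Neutrophil genes were set beside it. They lay lower in 11 of 14, with a median of -1.56 and summed levels of 19.9 to 1119 CPM with metformin and 176 to 4913 CPM without it. Most of that sum was Lcn2, a siderophore-binding protein gene that hepatocytes also express and that both lists hold, with 14.1, 102 and 1089 CPM with metformin and 4874, 331 and 121 CPM without it. Of the 14 neutrophil genes 4 were at 0 in at least 1 of the 6 libraries, and without metformin 4 the list median was -2.85. Camp, a granule peptide gene, had 0 to 0.0526 CPM with metformin and 0.164 to 4.14 CPM in untreated mutants. Prtn3, a granule protease gene outside the list, had 0.474, 0.627 and 1.45 CPM with metformin and 15.9, 71.1 and 2.38 CPM without it (-5.09 ± 2.30, edgeR adjusted p = 0.853). Prtn3 was highest in untreated 3, where the neutrophil list median relative to the untreated mean was -0.84, against 0.55 and 0.21 in untreated 2 and 4. Kupffer cell and macrophage genes lay lower in 14 of 18 (median -0.24), with summed levels of 349 to 1170 CPM with metformin and 606 to 760 CPM without it. With limma-voom 10 of the 18 lay higher (median 0.10). The median was -1.03 without metformin 4, -0.38 without untreated 3 and between -0.09 and -0.11 without metformin 1, metformin 3 or untreated 2. The part of these cells in the acute-phase difference was not tested.

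**Figure D1:**
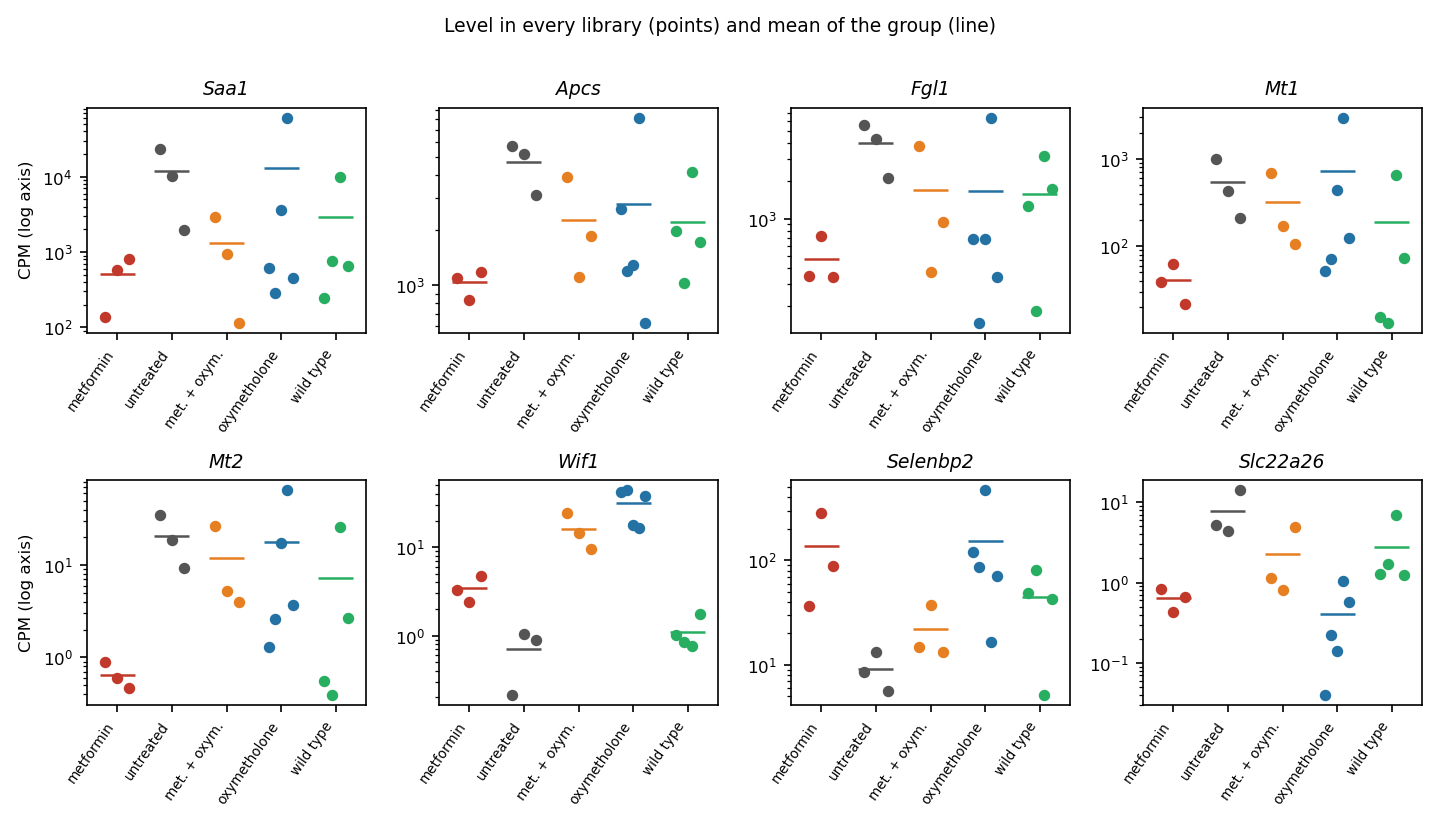
CPM of 8 genes on log axes in every library (points) with the mean of each group (line), for metformin, untreated, combination (met. + oxym.) and oxymetholone mutants and wild type. Saa1, Apcs, Fgl1, Mt1 and Mt2 lie lower and Wif1 and Selenbp2 higher in all 3 metformin libraries than in all 3 untreated ones, and 1 oxymetholone library reaches 60440 CPM of Saa1.

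A few more genes lay lower in every metformin library. Nnmt, chosen after its values were seen, which encodes nicotinamide N-methyltransferase, had 101, 78.8 and 87.8 CPM with metformin and 386, 487 and 470 CPM in untreated mutants (-2.33 ± 1.09, edgeR adjusted p = 0.861). Both groups were tight for Nnmt, but the wild-type livers ranged from 40.6 to 725 CPM. Dnajc12, a co-chaperone of aromatic amino acid hydroxylases, had 18.9, 14.9 and 15.1 CPM with metformin and 109, 153 and 39.4 CPM without it (-2.63 ± 0.91, edgeR adjusted p = 0.649). Slc22a26, an organic anion transporter gene, had 0.842, 0.429 and 0.666 CPM with metformin and 5.22, 4.38 and 14.0 CPM without it (-3.62 ± 0.97, edgeR adjusted p = 0.579). With Saa2, Prtn3, Mt2, Saa1, Mt1 and Fgl1 these last 2 complete the 8 genes with the largest negative difference under the naming rule. That rule admits only genes without overlap.

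Cholesterol synthesis genes lay lower with metformin throughout. They encode the enzymes that build cholesterol from acetyl-CoA through mevalonate and lanosterol, and the transcription factor SREBP2 drives them when sterols run low. All 20 listed genes were measured and 20 lay lower, with a median log2 difference of -0.68 against 0.04 over all genes. In 7 of the 20 the groups did not overlap. The list median relative to the untreated mean was -1.22 in metformin 1, -0.17 in metformin 3 and -0.88 in metformin 4, against -0.23, -0.09 and 0.36 in untreated 2, 3 and 4. Metformin 3 thus lay within the untreated range of this list, and without it the median difference was -1.10, with 20 of 20 still lower.

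The early steps come first. Hmgcs1, HMG-CoA synthase, had 104, 440 and 265 CPM with metformin and 523, 544 and 682 CPM in untreated mutants (-1.11 ± 0.60, edgeR adjusted p = 0.919). Pmvk, phosphomevalonate kinase, had 37.9, 47.9 and 29.0 CPM with metformin and 61.3, 96.4 and 149 CPM without it (-1.42 ± 0.50, edgeR adjusted p = 0.655), and Idi1, the isomerase of the next steps, ranged from 114 to 186 CPM with metformin and from 207 to 504 CPM without it. Among the later, sterol-forming steps, lanosterol demethylase Cyp51 had 226, 347 and 236 CPM with metformin and 413, 552 and 645 CPM without it (-0.99 ± 0.41, edgeR adjusted p = 0.785). Methylsterol oxidase Msmo1 had 342, 485 and 324 CPM with metformin and 509, 729 and 954 CPM without it (-0.93 ± 0.38, edgeR adjusted p = 0.786). Hmgcs1 and Idi1 were picked after their values were seen. In Hmgcs1, Pmvk, Idi1, Cyp51 and Msmo1 alike, untreated 4 was the highest library and the groups did not overlap. All are among the 7 of 20 genes without overlap. Pmvk, Cyp51 and Msmo1 were taken by smallest unadjusted edgeR p, so the shared separation follows from how the genes were picked.

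Of 12 other SREBP2 targets 8 lay higher and 4 lower (median 0.14). Without metformin 3 the split turned to 3 higher and 9 lower (median -0.12), and leaving out any other library gave medians between 0.07 and 0.31. Insig1, the sterol sensor that holds SREBP2 in place, had 245, 419 and 290 CPM with metformin and 402, 637 and 699 CPM without it (-0.87 ± 0.40, edgeR adjusted p = 0.854). The canalicular sterol exporter genes Abcg5 and Abcg8 lay higher without overlap, Abcg5 with 38.7 to 43.1 CPM with metformin and 19.6 to 33.03 CPM without it, and Abcg8 with 42.8 to 64.0 CPM with metformin and 22.4 to 41.5 CPM without it. Cyp7a1, the rate-limiting enzyme of bile acid synthesis, had 262, 67.6 and 57.5 CPM with metformin and 49.1, 192 and 101 CPM without it, with overlap.

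The promoter of Hmgcs1 is shown as the 1 window among these genes with the sterol response element written TCACNCCAC, searched on both strands and marked in capitals (250 bases before the start, RefSeq, GRCm38.p6, plus strand).
Hmgcs1, chr13:119690101-119690400: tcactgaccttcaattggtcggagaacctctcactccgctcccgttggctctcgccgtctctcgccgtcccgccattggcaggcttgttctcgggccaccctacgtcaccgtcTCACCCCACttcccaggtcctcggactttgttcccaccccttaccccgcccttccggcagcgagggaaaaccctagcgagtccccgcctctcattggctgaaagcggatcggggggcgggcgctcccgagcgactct
It starts at -137. Of 20 cholesterol synthesis genes 15 have a window in the table, 18 windows in all, and this motif is in 5.56% of the 18 and in 1.24% of all 32851 windows.

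**Figure D2:**
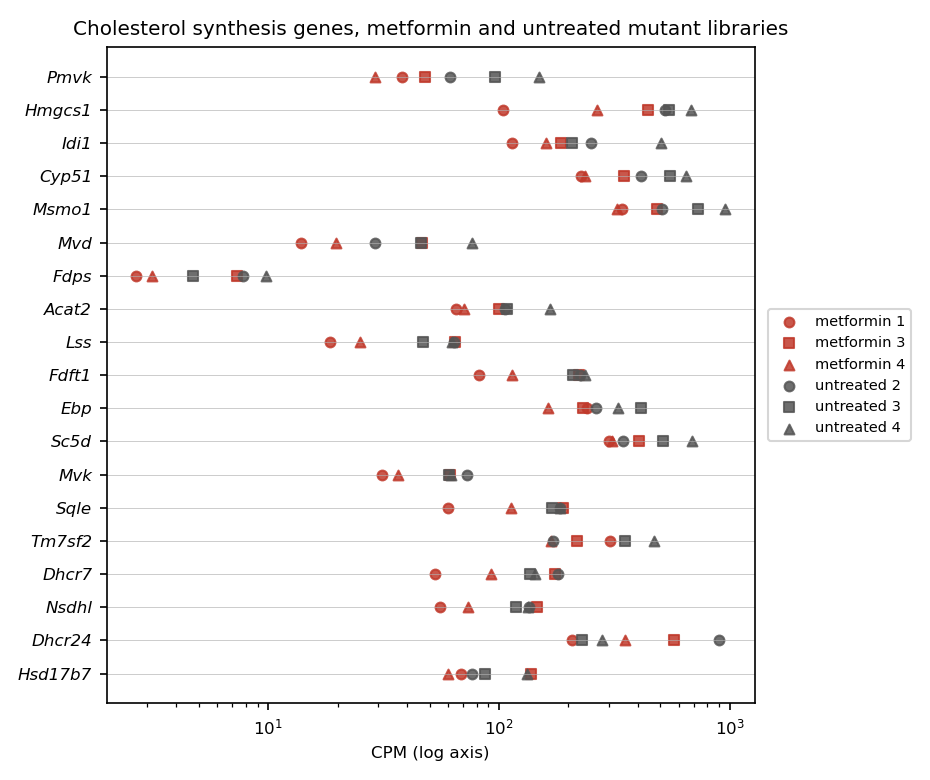
CPM of 19 cholesterol synthesis genes (log axis) in the 3 metformin and 3 untreated mutant libraries, ordered by log2 difference with the most negative at the top. Metformin 1 and 4 lie left of all 3 untreated libraries in most genes, while metformin 3 often lies among the untreated libraries or beyond them, as in Mvd and Nsdhl.

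Genes of metformin transport and of energy sensing mostly overlapped between the groups, and 6 of 8 transporter genes lay higher (median 0.13). Without metformin 1 the split turned to 3 higher and 5 lower (median -0.13), and the median was 0.007 without untreated 3, 0.07 without untreated 2 and 0.26 without metformin 4 or untreated 4. The exporter gene Slc47a1 (MATE1) had 47.3 to 78.6 CPM with metformin and 37.7 to 87.2 CPM without it. AMPK catalytic subunits and their upstream kinase also overlapped: log2 differences were 0.19 ± 0.26 for Prkaa1, 0.27 ± 0.26 for Prkaa2 and 0.19 ± 0.54 for Stk11, and the signs of Prkaa1 and Stk11 turned without metformin 3. Of 22 genes of the AMPK and mTOR pathways 16 lay higher and 6 lower (median 0.18). Without metformin 3 the split was 10 higher and 12 lower (median -0.07), and the median was 0.33 without metformin 1, 0.28 without untreated 2 and 0.11 without untreated 3. Sesn1, an AMPK-linked stress gene, was among the 2 without overlap, with 13, 16.8 and 15.8 CPM with metformin and 18.7, 21.3 and 24.2 CPM without it (-0.49 ± 0.21, edgeR adjusted p = 0.825). RNA levels of these genes say nothing of kinase activity.

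Of 21 gluconeogenesis genes 16 lay higher and 5 lower, with a median of 0.08 against 0.04 over all genes. Without metformin 3 the split was 10 higher and 11 lower (median -0.015), as it was with limma-voom (median -0.13). The median was between 0.17 and 0.29 without metformin 1, metformin 4, untreated 3 or untreated 4. Pck1, phosphoenolpyruvate carboxykinase, had 420, 846 and 296 CPM with metformin and 198, 444 and 332 CPM in untreated mutants (0.68 ± 0.61, edgeR adjusted p = 0.927). G6pc, glucose-6-phosphatase, had 107, 158 and 30.4 CPM with metformin and 49.0, 63.9 and 69.5 CPM without it (0.69 ± 0.53, edgeR adjusted p = 0.927). Both overlapped, with metformin 3 highest. Of secreted stress and fasting signals, Gdf15 had 8.45 to 12.7 CPM with metformin and 10.1 to 14.0 CPM without it, and Fgf21 had 5.28 to 8.05 CPM with metformin and 4.87 to 5.36 CPM without it. Igfbp1, an insulin-repressed binding protein gene, had 7.46 to 11.5 CPM with metformin and 14.3, 58.1 and 10.2 CPM without it. Among these named genes only Pfkfb3, which makes the glycolytic activator fructose-2,6-bisphosphate, was without overlap. It had 5.68, 5.98 and 3.998 CPM with metformin and 1.95, 1.48 and 1.83 CPM without it (1.56 ± 0.48, edgeR adjusted p = 0.579). Of the 21 gluconeogenesis genes 1 lay lower without overlap.

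Nuclear and mitochondrial genes of the respiratory chain lay on opposite sides. Of 36 nuclear genes of complex I, the enzyme that metformin inhibits, 34 lay lower, with a median of -0.33 and 0 without overlap. Their list median was 0.30 in metformin 1, -0.92 in metformin 3 and -0.46 in metformin 4, against -0.71 to 0.41 in untreated livers. Only metformin 3 lay below that range. The median difference was -0.10 without metformin 3, -0.12 without untreated 3, -0.60 without untreated 2 and -0.74 without metformin 1. Ribosomal protein genes ran in parallel (53 of 53 lower, median -0.36), with list medians of 0.14, -1.01 and -0.40 in metformin 1, 3 and 4. Their median was -0.13 without metformin 3, -0.16 without untreated 3 and -0.67 without metformin 1. Genes of the mitochondrial genome lay higher in 11 of 12 (median 0.43), 5 without overlap. Among them the complex I subunit mt-Nd5 had 2519, 2146 and 1644 CPM with metformin and 1304, 1243 and 1088 CPM in untreated mutants (0.80 ± 0.50, edgeR adjusted p = 0.927). The cytochrome oxidase subunit mt-Co1 had 11560 to 16560 CPM with metformin and 9188 to 11070 CPM without it. Mitochondrial genes held 3.25 to 3.89% of counts with metformin, 2.04 to 2.60% in untreated mutants and 2.95 to 3.85% in wild type. The source of the difference in share between metformin and untreated mutants was not tested.

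**Figure D3:**
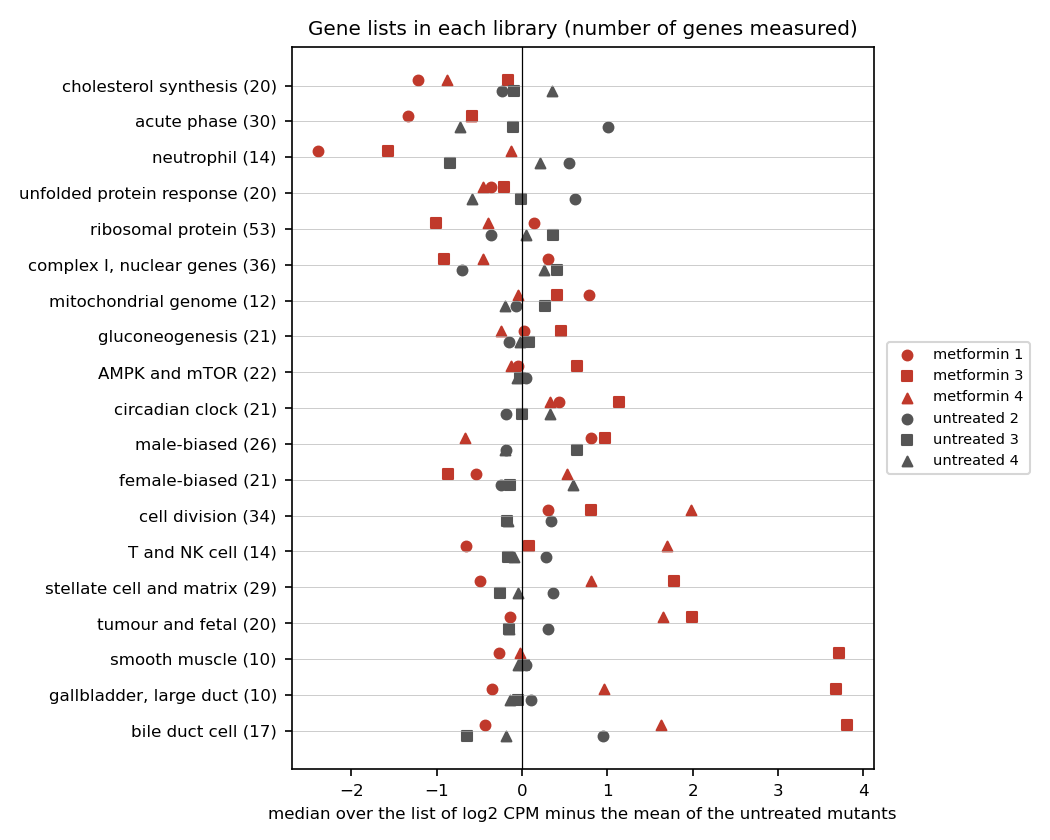
Median over each gene list of log2 CPM minus the mean of the untreated mutants, for each metformin (red) and untreated (grey) library, with the number of genes measured in brackets. Cholesterol synthesis is lowest in metformin 1 and 4, whereas smooth muscle, gallbladder and bile duct genes reach 3.68 to 3.81 in metformin 3.

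Among genes that lay higher in all 3 metformin livers, Wif1, a secreted Wnt inhibitor gene chosen after its values were seen, had 3.32, 2.38 and 4.66 CPM with metformin and 0.213, 1.04 and 0.880 CPM in untreated mutants (2.31 ± 0.56, edgeR adjusted p = 0.579). Selenbp2, a male-biased selenium-binding protein gene with a close copy in the genome, had 36.3, 283 and 88.1 CPM with metformin and 8.49, 13.2 and 5.61 CPM without it (3.90 ± 1.11, edgeR adjusted p = 0.579). In both genes the groups were clear of each other, which for Selenbp2 was a condition of the naming rule. Wild-type livers held 5.16 to 81.5 CPM of Selenbp2. The canalicular exporters followed at a smaller size. Abcc2, which exports conjugates into bile, had 84.7, 169 and 100 CPM with metformin and 71.6, 49.5 and 62.9 CPM without it (0.94 ± 0.35, edgeR adjusted p = 0.684), and Abcb4, the phospholipid floppase, had 162, 198 and 182 CPM with metformin and 113, 123 and 109 CPM without it (0.65 ± 0.31, edgeR adjusted p = 0.879). Wild type held 183 ± 45.1 CPM of Abcb4 (SD, n = 4).

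Circadian clock genes drive the daily rhythm of liver gene expression. In mouse liver the transcription factor genes Arntl and Nfil3 peak about opposite to Dbp and Per3. Of 21 clock genes 15 lay higher and 6 lower (median 0.64), 6 without overlap higher and 1 without overlap lower. Of the clock genes described, Dbp, Per3, Usp2 and Arntl were chosen after their values were seen. Dbp had 33.3, 27.8 and 21.8 CPM with metformin and 0.604, 2.79 and 13.2 CPM in untreated mutants (2.31 ± 1.21, edgeR adjusted p = 0.912). Per3, of the period family, had 4.11 to 6.79 CPM with metformin and 0.391 to 3.30 CPM without it, and the clock-driven protease gene Usp2 had 7.32, 6.604 and 5.07 CPM with metformin and 0.888, 1.75 and 2.13 CPM without it (1.99 ± 0.94, edgeR adjusted p = 0.873). Wee1, a clock-driven mitotic kinase gene, had 3.58, 6.37 and 6.69 CPM with metformin and 1.17, 1.37 and 2.02 CPM without it (1.87 ± 0.70, edgeR adjusted p = 0.705). Nfil3 went the other way with 15.8, 24.1 and 15.8 CPM with metformin and 52.1, 47.4 and 24.3 CPM without it (-1.15 ± 0.41, edgeR adjusted p = 0.661), and Arntl had 1.79, 6.64 and 2.405 CPM with metformin and 13.7, 10.1 and 3.45 CPM without it, with overlap. Untreated 4 was nearest to the metformin livers in Dbp, Per3, Nfil3 and Arntl. The labels do not give the hour of tissue collection, so time of day and drug cannot be told apart.

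Many of the higher genes were high in 1 metformin library alone. In bulk liver, fewer cells of a type and less RNA per cell cannot be told apart. Of 12557 genes at a mean log2 CPM of at least 0, metformin 3 lay 2 or more log2 units above all other 5 libraries in 113, metformin 4 in 26, untreated 2 and untreated 3 in 6 each, metformin 1 in 4 and untreated 4 in 0. Dmbt1, a mucosal scavenger protein gene of bile ducts and gut, had 6.74, 3764 and 4.35 CPM in metformin 1, 3 and 4 and 5.33, 8.70 and 6.31 CPM in untreated mutants. Adgrg7, an adhesion receptor gene of intestinal epithelium, had 214 CPM in metformin 3 and at most 0.526 CPM in the other 5 libraries. The duct keratin Krt19 had 237 CPM in metformin 3 and 0.684 and 1.51 CPM in the other metformin livers, against 3.66, 0.766 and 1.76 CPM in untreated mutants, and the mucin Muc1 had 155 CPM in metformin 3 and at most 1.85 CPM in the other 5.

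Whole marker lists moved with that library. Bile duct cell genes lay higher in 15 of 17, gallbladder and large duct genes in 9 of 10 and smooth muscle genes in 9 of 10, with medians of 2.58, 2.45 and 2.43, and without metformin 3 these medians were 1.10, 0.32 and -0.13. The smooth muscle genes included myosin heavy chain Myh11 with 53.3 CPM, smooth muscle actins Acta2 with 119 CPM and Actg2 with 33.7 CPM in metformin 3, while the highest values in the other 5 libraries were 0.711, 2.62 and 0.219 CPM. Summed levels of the bile duct list were 59.1 to 849 CPM with metformin and 79.1 to 1500 CPM in untreated mutants, where Spp1 (osteopontin) alone gave 1440 CPM in untreated 2. For the gallbladder list they were 522 to 1778 CPM with metformin and 598 to 808 CPM without it, and for smooth muscle 269 to 600 CPM with metformin and 291 to 393 CPM without it. Members at 0 in at least 1 of the 6 libraries numbered 4 of 17, 0 of 10 and 2 of 10 in the 3 lists. Of the 8 genes with the largest positive difference under the naming rule, Pglyrp1, Ckmt1, Mgat3, Synpo2, Kcnk1, Mlph and Aebp1 had metformin 3 at 9.94 to 68.7 CPM and the next library at no more than 2.95 CPM. The eighth was Selenbp2. The part of duct, gallbladder or muscle tissue in the differences of metformin 3 was not tested.

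Metformin 4 stood out in other genes. The imprinted fetal RNA H19 had 0.895, 10.2 and 283 CPM in metformin 1, 3 and 4 and 1.49, 0.930 and 0.807 CPM in untreated mutants, and Guca2a, the gut peptide guanylin, had 143 CPM in metformin 4 and at most 0.853 CPM in the other 5. Cell division genes lay higher in 33 of 34 (median 1.34), 9 without overlap, and the list medians were 0.30, 0.81 and 1.98 in metformin 1, 3 and 4 against -0.17 to 0.34 in untreated libraries. Without metformin 4 the median was 0.57, with 28 of 34 higher. The mitotic kinase Cdk1, like Mki67 chosen after its values were seen, had 1.79, 2.38 and 6.81 CPM with metformin and 1.24, 1.26 and 1.28 CPM in untreated mutants, and the proliferation marker Mki67 had 0.895, 1.45 and 3.25 CPM with metformin and 0.675, 0.656 and 0.403 CPM without it. Neither overlapped, but Top2a, the mitotic topoisomerase, did: 0.9999, 1.91 and 5.82 CPM with metformin and 1.03, 0.820 and 0.403 CPM without it. T and NK cell genes lay highest in the same library, with a list median of 1.70, against -0.66 in metformin 1, 0.08 in metformin 3 and -0.17 to 0.28 in untreated mutants. Their summed level was 3.68 to 28.1 CPM with metformin and 5.52 to 15.6 CPM without it, and 3 of the 14 genes were at 0 in at least 1 library. Without metformin 4 the median of the T and NK cell list was -0.33 in place of 0.89. Metformin 1 carried the highest Alas1, the first enzyme of heme synthesis (423 CPM against at most 93.2 in the other 5), and Noct, a clock-driven gene (29.6 CPM against at most 5.28). Of the untreated livers, untreated 3 alone carried Mup22, a major urinary protein gene whose near-identical copies can share reads, at 277 CPM against at most 5.68 CPM in the other 5.

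**Figure D4:**
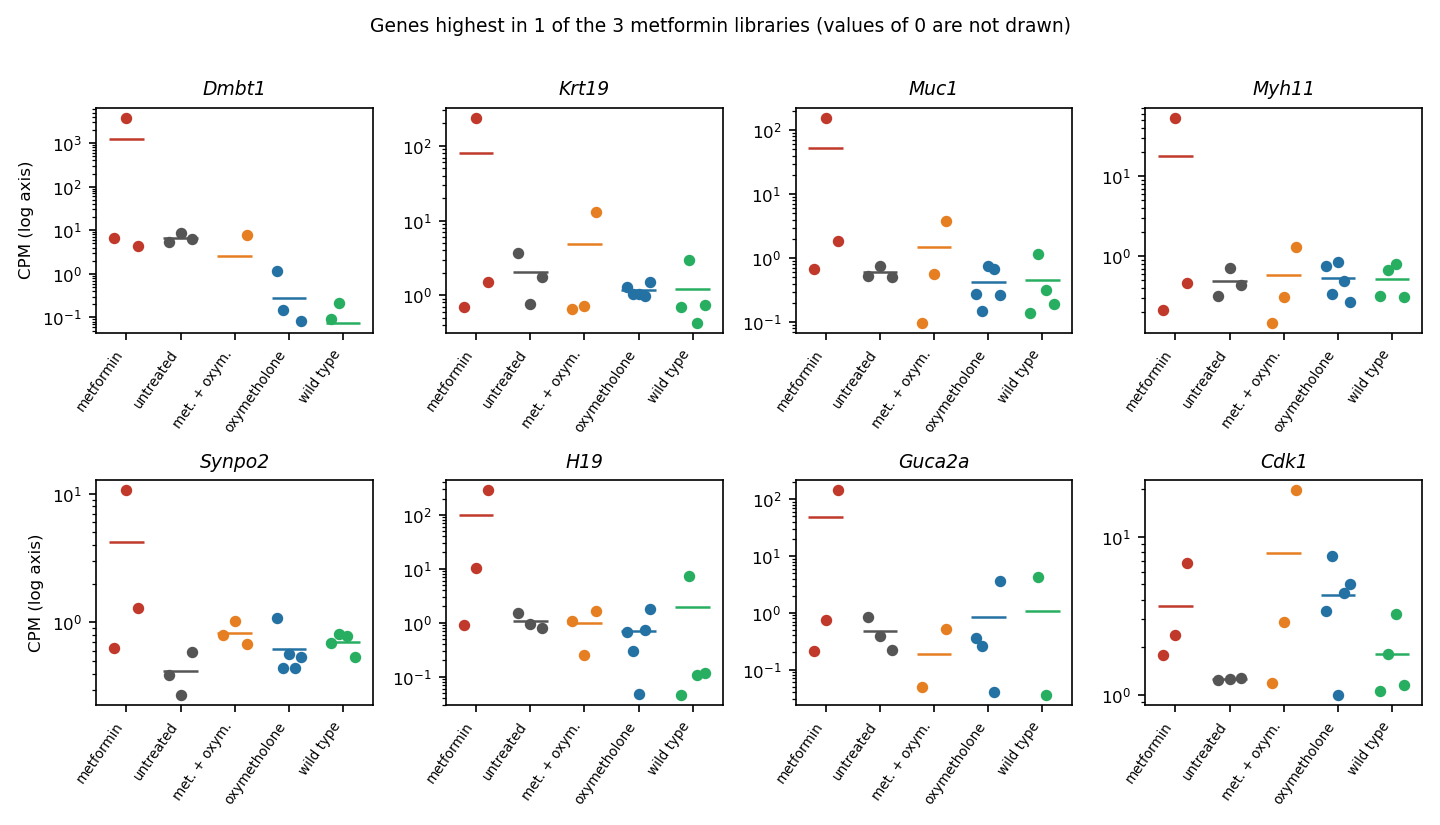
CPM of 8 genes on log axes in every library of the series (points) with group means (lines), values of 0 not drawn. Dmbt1, Krt19, Muc1, Myh11 and Synpo2 are highest in metformin 3 and H19, Guca2a and Cdk1 in metformin 4 among the metformin libraries, and combination 3 exceeds the other combination libraries in Krt19, Muc1 and Cdk1.

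The study holds a second test of the same drug, metformin added to oxymetholone, in 3 combination and 5 oxymetholone libraries that share no library with the first. EdgeR called 0 of 16115 genes there (0%), 461 at an unadjusted p under 0.05, while limma-voom called 0 and DESeq2 1. The groups did not overlap in 60 genes lower (0.372%) and 123 genes higher (0.763%) with the combination. The difference between the effects with and without oxymetholone was called in 0 genes by edgeR, with 483 at an unadjusted p under 0.05, 0 by limma-voom and 3 by DESeq2. Cholesterol synthesis genes lay lower in 20 of 20 here as well, with a median of -0.59. Of the 20, 0 were without overlap, where 0.372% of all genes lay lower without overlap. With 3 against 5 libraries this count cannot be set against the 7 of 20 found with 3 against 3. Relative to the untreated mean, the list median was -0.89, -1.77 and -0.83 in combination 1, 2 and 3. With oxymetholone it ranged from -1.44 to -0.01, and oxymetholone 2 and 5, at -1.31 and -1.44, lay below combination 1 and 3. Hmgcs1 had 226, 64.4 and 262 CPM with the combination and a range of 116 to 472 CPM with oxymetholone. Pmvk had 41.7, 26.6 and 79.2 CPM with the combination and 29.6 to 87.4 CPM with oxymetholone. Of the acute-phase genes 28 of 30 lay lower, with a median of -0.63. Oxymetholone 4 stood apart in this list, at a median of 1.31 relative to the untreated mean and a summed 318800 CPM. The other 4 oxymetholone libraries lay at -1.33 to -0.93, and combination 1, 2 and 3 at -0.19, -0.97 and -1.42. Combination 1 thus lay above those 4. Oxymetholone 4 carried 60440 CPM of Saa1, against 283 to 3637 CPM in the other 4 oxymetholone livers and 2929, 952 and 116 CPM with the combination (log2 difference -3.30 ± 1.83).

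Apcs and Fgl1, without overlap in the metformin comparison, overlapped here, with log2 differences of -0.28 ± 0.67 and 0.05 ± 1.03. Over all genes, 0.372% lay lower and 0.763% higher without overlap in this comparison. Mt2 had 26.3, 5.25 and 4.02 CPM with the combination and 1.28 to 64.6 CPM with oxymetholone (-0.60 ± 1.26), and Mt1 had 688, 172 and 107 CPM with the combination and 52.2 to 2937 CPM with oxymetholone. The clock gene Dbp had 19.7, 65.6 and 1.03 CPM with the combination and 17.0 to 75.4 CPM with oxymetholone. The difference between the effects was set out for Slc22a26, Selenbp2 and Wif1, whose signs were opposite. Slc22a26 had 1.14, 0.816 and 4.91 CPM with the combination and 0.0401 to 1.05 CPM with oxymetholone (2.49 ± 0.80), a difference from the effect without oxymetholone of -6.11 ± 1.26 (edgeR adjusted p = 0.863). Selenbp2 had 15.0, 37.6 and 13.3 CPM with the combination and 16.4 to 468 CPM with oxymetholone (-2.80 ± 1.001), a difference of 6.70 ± 1.49 (edgeR adjusted p = 0.863). Wif1 had 24.4, 14.3 and 9.57 CPM with the combination and 16.3 to 44.0 CPM with oxymetholone (-0.97 ± 0.46), a difference of 3.28 ± 0.72 (edgeR adjusted p = 0.863). Among whole lists, the mitochondrial genome, clock, male-biased and ribosomal protein medians were -0.31, -0.22, -0.51 and 0.17 with oxymetholone as background and 0.43, 0.64, 0.45 and -0.36 without it, while female-biased genes had medians of 1.26 with it and -0.25 without it. The male-biased median of 0.45 was 0.12 without metformin 3, 0.74 without metformin 4, 0.72 without untreated 3 and -0.32 with limma-voom. The female-biased median of -0.25 ranged from -1.11 without metformin 4 to -0.015 without untreated 4. Combination 3 stood apart in several of these lists. Relative to the untreated mean, mitochondrial genome medians were 0.39, 0.52 and -1.045 in combination 1, 2 and 3. Clock medians were 0.66, 0.78 and -0.40 in the same order. Male-biased medians were -0.23, 1.055 and -2.81, and female-biased ones 0.07, -0.70 and 2.15. Bile duct genes had medians of 1.87 with oxymetholone as background and 2.58 without it, and combination 3 and metformin 3 each held the highest Krt19 of their group.

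**Figure D5:**
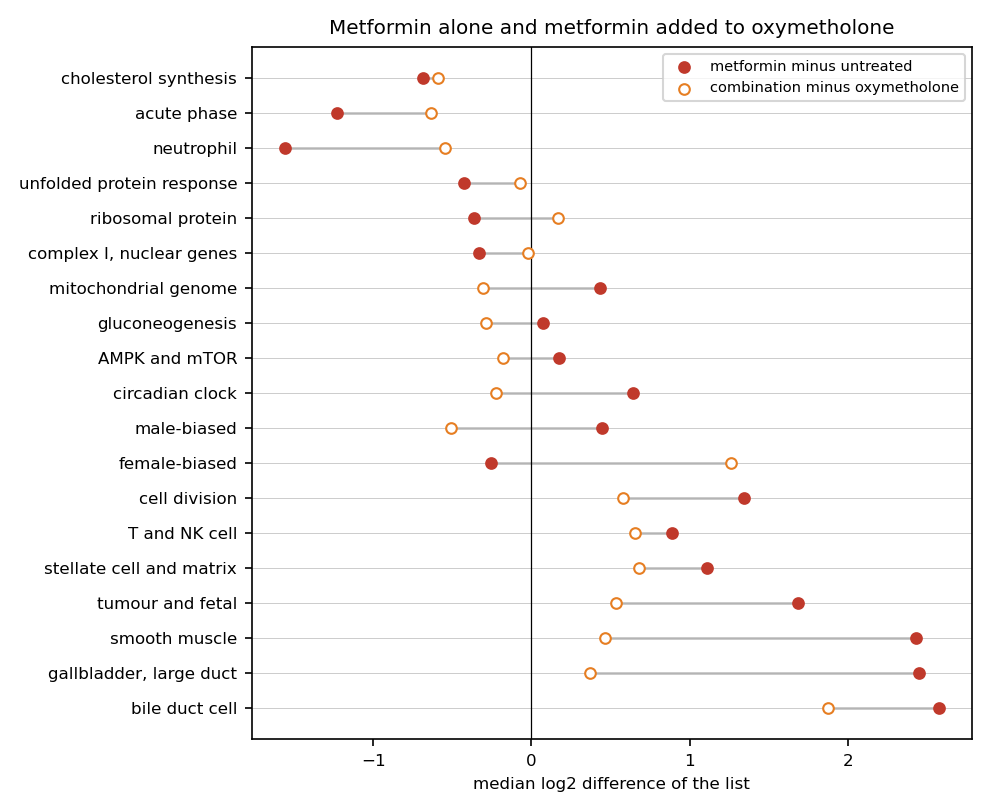
Median log2 difference of each gene list for metformin minus untreated mutants (filled) and for the combination minus oxymetholone (open), which share no library. Cholesterol synthesis lies at -0.68 and -0.59, acute phase at -1.23 and -0.63, and lists such as the clock, mitochondrial genome and sex-biased genes lie on opposite sides of 0. Single libraries stood apart in several lists, oxymetholone 4 in acute phase and combination 3 in the mitochondrial genome and sex-biased genes.

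The authors' deposited table held 0 genes at an adjusted p under 0.05 for metformin against untreated mutants, and 597 at an unadjusted p under 0.05. Its log2 fold changes had the same sign as those from the counts in 68.3% of genes. The gene with its smallest adjusted p was Krt19, 0.254 in the authors' deposited table, with a log2 fold change of -3.17 there, opposite to the 5.25 ± 1.67 computed here from counts. Without metformin 3 the counts gave -0.90 for Krt19. How the authors tested the comparison is not stated in the labels.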

How the data were processed

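Liver RNA was sequenced, and the authors deposited 1 table with whole-number counts per gene and library, per the file headers. The deposited table also holds a CPM signal scaled per library, log2 residuals, log2 fold changes and p-values, and the labels state no method for them. Only the counts were tested, and the authors' log2 fold changes and p-values are quoted where named. Per the submitters' processing notes the genome build was GRCm39. Aligner, annotation and strand setting: not given in the sources used here.

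EdgeR 4.0.16 in R 4.3.3 was run on all 18 libraries with 1 coefficient per group, TMM scaling, filterByExpr (which removed 0 of 16115 genes), a robust quasi-likelihood fit and Benjamini-Hochberg adjustment at 0.05. Standard errors are the size of the log2 difference divided by the root of the test's F. A list is described by counts and its median, with no test. The procedure was tested on simulated data. The alternatives were DESeq2 1.42.0, its size factors, limma-voom 3.58.1, other filters, no robust moderation, the compared groups alone, and leaving out libraries. Leaving out metformin 3 and combination 3 together was chosen after seeing the data.

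The members, the gene lists and the rules were chosen with earlier results of these data known. Named genes were fixed ones of metformin biology, the 8 largest differences each way among genes with a known symbol, a mean log2 CPM of at least 0, an unadjusted p under 0.05 and no overlap, up to 3 per list, and the 3 that most set each library apart. Those with a known role are given, and a few are not reported here. Outside the rule, mt-Co1, Hmgcs1, Idi1, Abcg5, Abcg8, Mtf1, Lcn2, Nnmt, Wif1, Dbp, Per3, Usp2, Arntl, Mki67, Cdk1 and Acta2 were chosen after their values were seen. Untreated 1 and metformin 2 were not analysed here. With 3 libraries per group, of 21197647 to 29766050 counts each, the precision is limited.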

Additional observations from a re-analysis of the deposited data

Results flagged for a closer look

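Several levels given for oxymetholone and wild-type livers had 1 library far above the rest of its group by Dixon's criterion, which chance meets in about 1 of 20 groups. Oxymetholone 4 was that library for Saa1 (60440 CPM), Apcs (8151 CPM), Fgl1 (6391 CPM), Mt1 (2937 CPM) and Mt2 (64.6 CPM). In wild type, replicate 3 was the highest for Saa1 (10020 CPM), Mt1 (646 CPM), Mt2 (25.7 CPM) and Slc22a26 (6.99 CPM). Oxymetholone 3 was the highest for Selenbp2 (468 CPM) and Dbp (75.4 CPM), and wild-type replicate 2 for Dbp (30.1 CPM). Groups of 3 libraries, metformin and untreated mutants among them, were not examined this way.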

How the results depend on the processing

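EdgeR called 0 genes for metformin against untreated mutants under every setting run with it, each left-out library included (0 to 0), and likewise for metformin added to oxymetholone (0 to 0) and for the difference of the effects (0 to 0). DESeq2 called 11, 1 and 3 in the 3 comparisons. No paired analysis was made, as the labels give no pairing of libraries between the groups. For metformin against untreated mutants, genes at an unadjusted p under 0.05 numbered 914 in the reported fit, 594 at a mean CPM of at least 1, 564 from the compared groups alone, 2202 with limma-voom and 447 without metformin 3 and combination 3. Leaving out 1 library gave 335 to 1883.

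Of 977 values of 70 genes under alternatives, 31 in 16 genes changed sign, and the cause was not tested. With limma-voom the log2 differences that changed sign were Slc47a1 -0.032, G6pc -0.29, Cyp7a1 -0.67, Mtf1 -0.10, Actg2 -0.78 and Spp1 0.91. Without metformin 3 and combination 3, left out after seeing the data, they were Prkaa1 -0.068, Stk11 -0.23, Mtf1 -0.062, Dmbt1 -0.29, Adgrg7 -0.13, Krt19 -0.88, Myh11 -0.45 and Acta2 -0.31. Leaving out 1 library at a time, the log2 differences ranged in Slc47a1 from -0.081 to 0.58, Prkaa1 from -0.080 to 0.35, Stk11 from -0.24 to 0.59, Cyp7a1 from -0.86 to 0.78, Serpina3n from -2.13 to 0.35, Mtf1 from -0.066 to 0.24, Lcn2 from -4.93 to 0.83, Dmbt1 from -0.29 to 8.12, Adgrg7 from -0.13 to 8.11, Krt19 from -0.90 to 5.95, Myh11 from -0.47 to 5.79, Actg2 from -2.67 to 6.87, Acta2 from -0.32 to 4.87, Spp1 from -2.21 to 1.49 and Mup22 from -5.36 to 0.27. Of 700 medians of 50 lists under alternatives, 60 in 25 lists had the opposite sign, and 35 moved by more than the SD of the list between the 3 metformin libraries. Leaving out the filter, which removed 0 of 16115 genes, could not move any value. Leaving out robust moderation gave the same list medians as the reported fit. Both settings are included in the counts of gene values and of medians. With limma-voom, which weights libraries by quality, medians were -0.59 for acute phase, -0.71 for neutrophil, -0.61 for complex I, 0.25 for mitochondrial genome, 0.40 for clock, 0.81 for gallbladder, 0.61 for smooth muscle and 1.37 for T and NK cell genes. The small number of libraries, with 1 standing apart, limits the comparison, and the effect of depth was not tested.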

Other observations

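Dmbt1 and Adgrg7, at 3764 and 214 CPM in metformin 3, were also present at low and similar shares of those levels in 6 other libraries. Relative to metformin 3, Dmbt1 stood at 0.179% in metformin 1, 0.115% in metformin 4, 0.142, 0.231 and 0.168% in untreated 2, 3 and 4, and 0.209% in combination 3. Adgrg7 stood at 0.246, 0.0949, 0.133, 0.205, 0.206 and 0.253% in the same 6 libraries. In the other 11 libraries of the series Dmbt1 reached at most 0.0309% and Adgrg7 at most 0.0333%. The source of these low levels was not tested.

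Unfolded protein response genes lay lower with metformin in 17 of 20 (median -0.43), a median that was -0.08 without untreated 2. B and plasma cell genes lay higher in 12 of 15 (median 0.90), 3 of them without overlap, and without untreated 4 in 14 of 15 (median 1.71). Genes of nuclear respiratory complexes II to V lay lower in 32 of 37 (median -0.31), a median that was -0.10 without metformin 3, -0.13 without untreated 3, -0.19 without untreated 4, -0.61 without untreated 2 and -0.74 without metformin 1.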
